A study of Mus musculus with 7 samples.

Results

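S100 proteins are small calcium-binding proteins that work mostly as dimers, and most of their genes lie together on mouse chromosome 3. The genes described here are 9 members of that cluster, S100a1, S100a4, S100a6, S100a8, S100a9, S100a10, S100a11, S100a13 and S100a16. They were taken by name from the 20343 complete gene rows of the count table, and all 9 were among the 7667 genes with enough counts to be tested. The samples were apical heart muscle from 7 NSG-DR1 mice, labelled with the strain name NSG-DRB1*0101, an immunodeficient line with a human HLA-DR1 transgene that accepts human cells. Of these, 4 were controls left untreated, and the other 3 were given human CD4+ T cells and were collected 6 weeks later. Both groups share the strain, its immune deficiency and the transgene. The labels give neither age nor sex, and untreated controls received no other cells in place of the T cells. Mice of this background lack their own T, B and natural killer cells and keep neutrophils and macrophages.

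The members have different roles. S100A8 and S100A9 form calprotectin, a complex stored in neutrophils and monocytes that is released in inflammation and binds Toll-like receptor TLR4 and the receptor RAGE. S100A1 is the main S100 protein of heart muscle cells, where it tunes the calcium pump and the calcium release channel of the sarcoplasmic reticulum. The others are made in many cell types, among them fibroblasts, endothelium and leukocytes. In bulk tissue, fewer cells of a type and less RNA per cell cannot be told apart, and this holds for every value below.

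The 3 members that differed most between hearts, S100a8, S100a9 and S100a4, are shown with the main cardiac member S100a1 by the 80 bases around their annotated start. Each runs from 60 bases before the start to base 20 of the transcript, 5′ to 3′ on the strand of the gene, from RefSeq on GRCm38.p6. Capitals mark the letters TATAAA, the core of a TATA box, searched on the strand of the gene. The windows are chr3:90669011-90669090 (plus strand) for S100a8, chr3:90695702-90695781 (minus strand) for S100a9, chr3:90603710-90603789 (plus strand) for S100a4 and chr3:90514311-90514390 (minus strand) for S100a1.
S100a8: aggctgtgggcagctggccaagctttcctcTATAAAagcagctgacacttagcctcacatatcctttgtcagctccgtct
S100a9: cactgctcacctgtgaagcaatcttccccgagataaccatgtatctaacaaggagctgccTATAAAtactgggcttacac
S100a4: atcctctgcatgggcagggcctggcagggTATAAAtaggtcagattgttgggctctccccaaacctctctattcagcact
S100a1: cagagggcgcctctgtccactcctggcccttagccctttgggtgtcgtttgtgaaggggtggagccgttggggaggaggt

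Of the 9 members, 8 matched an entry of the promoter table, and 3 of these 8 held TATAAA in this window. It began 30 bases before the start in S100a8, 31 bases before it in S100a4 and at base 1 of the annotated transcript in S100a9. Of all 32851 mouse start sites of that table, 3.2% held it in the same window. The 3 members with these letters were also the 3 members with an unadjusted edgeR p-value under 0.05 in the comparison below, which is a description of 8 genes. In S100a9, 1 of the 3, the letters lie inside the annotated transcript and not before its start. A link between these letters and the levels was not tested. In the 250 bases before the start, the C/EBP core TTNNGNAA was found on either strand in S100a8 and S100a9 alone among the matched members, against 36.8% of all start sites. The AP-1 letters TGANTCA were found in S100a11 and before 1 of the 2 listed starts of S100a16, against 6.75% of all start sites, and the PU.1 letters GAGGAA in S100a8, S100a11 and S100a16, against 23.3%. A core of the NF-kB motif (in 1.21% of all start sites) and one of the MEF2 motif (3.2%) were in none of these member windows. All were searched on both strands, and the C/EBP, AP-1 and PU.1 matches of the members do not overlap each other.

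S100a1 was by far the most abundant member in every heart. Levels are compared between genes per length, as counts-per-million (CPM) scaled by TMM, a method that evens out library composition, and divided by the combined exon length in kilobases. In control hearts S100a1 averaged 2410 ± 184 CPM per kb (SD, n = 4) and ranked 31 of the 7667 tested genes. S100a11, which binds annexin A1, followed at 164.0 ± 15.6, then S100a6 (calcyclin) at 106.6 ± 11.5 and S100a10, the calcium-insensitive partner of annexin A2, at 97.8 ± 11.4 CPM per kb. S100a16 was at 73.3 ± 4.16 and S100a13, which takes part in the release of FGF and interleukin proteins without a signal peptide, at 57.9 ± 1.85. S100a4, also called fibroblast-specific protein although leukocytes make it too, was at 15.1 ± 1.27 CPM per kb. S100a9 at 7.54 ± 2.51 and S100a8 at 4.25 ± 0.851 were the lowest (SD, n = 4 for each).

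The order was the same in every control heart except for S100a6 and S100a10, which changed places in control heart 4 and whose ranges overlapped. The ranges of S100a9 and S100a8 overlapped as well, but S100a9 was above S100a8 in all 4 control hearts. No other neighbours in this order overlapped in control hearts. Between S100a1 and S100a11 lay a ratio of 14.7.

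Transferred heart 2 had another order. There S100a9 took rank 2 of the 9 at 263 CPM per kb, above S100a11, and S100a8 took rank 4 at 184.4 CPM per kb, while S100a1 kept rank 1 at 2424 CPM per kb. In transferred heart 1 the order was that of control hearts 1, 2 and 3. In transferred heart 3 S100a9 took rank 7, above S100a4, S100a13 stood above S100a16, and S100a8 kept rank 9.

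**Figure D1:**
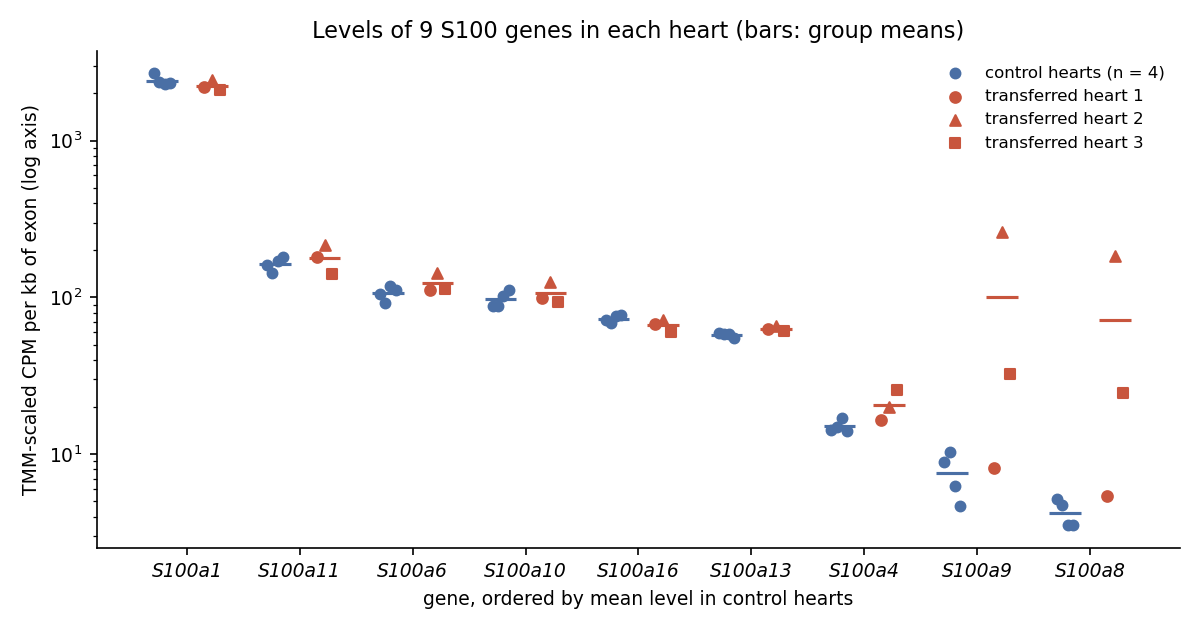
The vertical log axis gives TMM-scaled CPM per kb of exon for the 9 genes, ordered along the horizontal axis by their control mean. Blue points are the 4 control hearts, red symbols the 3 transferred hearts and short lines the group means. S100a1 lies between 2105 and 2683 in every heart, and S100a8 and S100a9 reach 184.4 and 263 in transferred heart 2 while transferred heart 1 lies with the controls.

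S100a8 and S100a9 were far higher in 2 of the 3 transferred hearts, and no member passed the test over all genes. The edgeR quasi-likelihood test with Benjamini-Hochberg adjustment called 0 of the 9 members at an adjusted p-value under 0.05, and 3 of 9 had an unadjusted p-value under 0.05. Over all tested genes 18 of 7667, or 0.235%, were called and 12.4% had an unadjusted p-value under 0.05. DESeq2 called 2 members, S100a8 and S100a9, and 252 of all 7667 tested genes. With limma-voom 0 members and 0 of all tested genes were called. S100a4 had an unadjusted limma-voom p of 0.0308, and 907 of the 7667 genes had one under 0.05. The log2 fold change was positive in 7 members, and the median over all 9 was 0.13, against -0.002 over all tested genes. The groups did not overlap in 2 of 9 members, S100a8 and S100a13, both higher in transferred hearts, beside 11.2% of all tested genes in either direction and 5.99% higher.

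S100a8 (chromosome 3, 90669071 to 90670034, GRCm38) encodes the smaller calprotectin subunit. Its CPM in control hearts 1 to 4 was 2.04, 1.85, 1.38 and 1.39, from 42, 43, 36 and 22 counts. In transferred hearts 1, 2 and 3 it was 2.13, 72.3 and 9.64 CPM, from 42, 1537 and 195 counts. The groups did not overlap, but transferred heart 1 lay only just above the highest control heart. Relative to the control mean the transferred hearts stood at 1.28, 43.4 and 5.78 times. The log2 fold change was 4.07 with a standard error of 1.16, a fold of 16.8 with a 95% interval from 2.39 to 117.4 (edgeR adjusted p = 0.248). Without transferred heart 2 it was 1.82 (edgeR adjusted p = 0.34), and DESeq2 with all hearts gave 4.07 (adjusted p = 0.00857).

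S100a9 (chromosome 3, 90692630 to 90695721) encodes the partner subunit and lies 22595 bases beyond S100a8 on the opposite strand. Its CPM was 4.67, 5.38, 3.30 and 2.46 in control hearts 1 to 4 and 4.30, 137.8 and 16.9 in transferred hearts 1, 2 and 3. Transferred heart 1 lay inside the control range, so the groups overlapped, while transferred hearts 2 and 3 were 34.9 and 4.28 times the control mean. The log2 fold change was 3.73 with a standard error of 1.14 (edgeR adjusted p = 0.283). Without transferred heart 2 it was 1.42 (edgeR adjusted p = 0.481), and DESeq2 with all hearts gave 3.75 (adjusted p = 0.022).

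The ratio of the calprotectin transcripts varied far less than their levels. S100a9 per kb was 1.71, 2.17, 1.79 and 1.33 times S100a8 in control hearts 1 to 4 and 1.51, 1.43 and 1.31 times in transferred hearts 1, 2 and 3. The ratio therefore stayed within 1.31 and 2.17 over hearts in which S100a8 itself ranged 52.3-fold. Within transferred hearts alone S100a8 ranged 34-fold and S100a9 32-fold, while in control hearts they ranged 1.48-fold and 2.19-fold. The coefficient of variation of S100a8 was 20% in control hearts and 137.5% in transferred hearts, and the SD of the transferred hearts exceeded their mean, at 28.02 ± 38.5 CPM (SD, n = 3).

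The identifiers of the animals come in 2 forms, starting with digits in 5 hearts and with letters in the first control heart and the first transferred heart. Between the 2 hearts with letters the transferred to control ratio was 1.04 for S100a8 and 0.922 for S100a9. Among the hearts with digits, 3 control and 2 transferred, it was 26.6 for S100a8 and 20.8 for S100a9. The higher calprotectin level was thus seen within 1 of the 2 forms. With the form as a covariate and all 7 hearts, the log2 fold changes were 3.70 for S100a8 and 3.36 for S100a9 (edgeR adjusted p = 0.301 and 0.346). Without the 2 hearts with letters they were 4.74 and 4.37 (edgeR adjusted p = 0.189 and 0.258). What the forms stand for is not given in the labels.

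S100a4 binds non-muscle myosin and is made by fibroblasts and leukocytes. Its CPM was 8.996, 9.38, 10.6 and 8.83 in control hearts 1 to 4 and 10.3, 12.5 and 16.2 in transferred hearts 1, 2 and 3. Here transferred heart 3, not heart 2, was the highest, and transferred heart 1 lay within the control range. The log2 fold change was 0.46 with a standard error of 0.17, a fold of 1.37 with a 95% interval from 1.06 to 1.78 (edgeR unadjusted p = 0.0216, adjusted p = 0.304). Without transferred heart 3 it was 0.27 (edgeR unadjusted p = 0.121).

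S100a6 lies 6848 bases beyond S100a4 and binds the calcyclin-binding protein Cacybp. It was at 75.6, 65.8, 85.4 and 79.9 CPM in control hearts and at 80.4, 102.7 and 81.4 CPM in transferred hearts. Transferred heart 2 alone was above the control range, and the log2 fold change of 0.20 had a 95% interval from -0.06 to 0.46 (edgeR adjusted p = 0.537). Without transferred heart 2 it was 0.08 (edgeR adjusted p = 0.892). Per kb, S100a6 was 6.11 to 7.89 times S100a4 in control hearts, 6.78 and 7.16 times in transferred hearts 1 and 2, and 4.39 times in transferred heart 3.

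S100a10 and S100a11 lie next to each other, 28828 bases apart, at the far end of the cluster. S100a10 was at 57.7, 57.5, 66.4 and 72.8 CPM in control hearts and at 64.4, 81.8 and 60.7 CPM in transferred hearts. S100a11 was at 81.3, 72.5, 85.5 and 91.2 CPM in control hearts and at 91.1, 108.8 and 71.5 CPM in transferred hearts. In both genes transferred heart 2 was the highest of all 7 hearts and the other transferred hearts were near the controls, with transferred heart 3 lowest of all for S100a11. The log2 fold changes were 0.12 (95% interval -0.16 to 0.40) and 0.13 (95% interval -0.17 to 0.43), with edgeR adjusted p-values of 0.766 and 0.754. Without transferred heart 2 both turned to -0.02.

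S100a13 had the narrowest spread of the family. Its CPM was 54.4, 53.5, 53.9 and 50.6 in control hearts and 57.5, 60.1 and 56.3 in transferred hearts. All 3 transferred hearts were above all 4 control hearts, by a small margin, with coefficients of variation of 3.2% and 3.3% within the groups. The log2 fold change was 0.13 with a 95% interval from -0.04 to 0.29 (edgeR adjusted p = 0.539). S100a13 and S100a1 overlap by 98 bases at their starts, on opposite strands, and S100a1 is counted far more often. Whether the counting used strand is not given in the sources used here, so reads in the overlap cannot be told apart. Values with a fractional part were present in 4 of 7 hearts for S100a1 and in 1 for S100a13.

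S100a1, the cardiac member, did not pass the test, and its mean was slightly lower in transferred hearts. Its CPM was 1650, 1447, 1408 and 1423 in control hearts 1 to 4 and 1345, 1491 and 1294 in transferred hearts 1, 2 and 3. Transferred hearts 1 and 3 were below every control heart, and transferred heart 2 lay inside the control range. The log2 fold change was -0.11 with a standard error of 0.09 and a 95% interval from -0.31 to 0.10, a fold between 0.806 and 1.07 (edgeR adjusted p = 0.695). It was -0.05 without control heart 1 (edgeR adjusted p = 0.901) and -0.03 without the 2 hearts with letters (edgeR adjusted p = 0.935). The transferred to control ratio was 0.815 between the hearts with letters and 0.976 among those with digits. S100a16, a widely expressed member, was at 115.0, 110.5, 123.1 and 124.6 CPM in control hearts and at 108.3, 115.1 and 97.7 CPM in transferred hearts. It too had transferred hearts 1 and 3 below every control, and its log2 fold change of -0.14 had a 95% interval from -0.33 to 0.04 (edgeR adjusted p = 0.54).

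The balance between the cardiac and the calprotectin members therefore differed by heart. Per kb, S100a1 exceeded S100a8 by 515, 498.6, 649.3 and 653.6 times in control hearts 1 to 4. In transferred hearts 1, 2 and 3 it exceeded it by 403, 13.1 and 85.6 times. Each transferred heart was below the lowest control value, and hearts 2 and 3 by far the most. Of the summed level of the 9 members per kb, S100a8 took 0.123% to 0.167% and S100a9 0.163% to 0.362% in control hearts. In transferred heart 2 S100a8 took 5.25% and S100a9 7.49%, and the share of S100a1 was 69.0%, against 80.6% to 83.9% in control hearts.

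**Figure D2:**
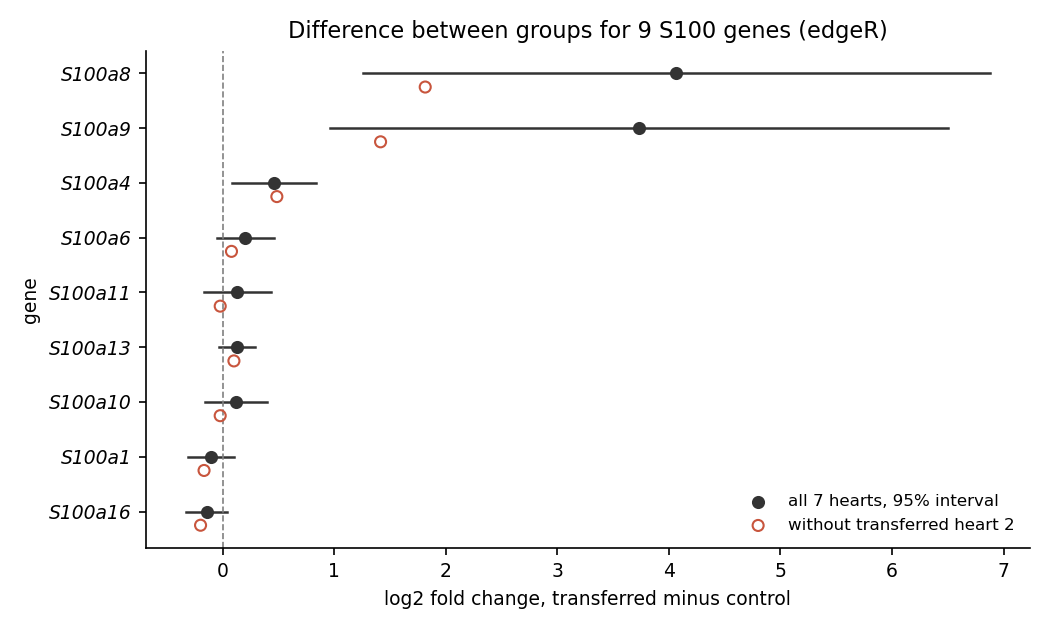
The horizontal axis gives the log2 fold change of transferred over control hearts for each gene, with filled points for the edgeR fit of all 7 hearts, lines for its 95% interval and open circles for the fit without transferred heart 2. S100a8 moves from 4.07 to 1.82 and S100a9 from 3.73 to 1.42, and the other 7 members stay between -0.20 and 0.49 in both fits.

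The genes whose pattern was most like S100a8 were found by the root mean square difference of log2 CPM, centred on the mean of each gene, over the 7 hearts and all tested genes. S100a9 was nearest at 0.23, and Cxcr2 at 0.61, Cxcl1 at 0.68 and Selp at 0.76 were also among the 5 nearest. Cxcr2 is a chemokine receptor of neutrophils, Cxcl1 one of its ligands and Selp the P-selectin of activated endothelium and platelets. Cxcr2 was at 0.438, 0.559, 0.192 and 0.757 CPM in control hearts and at 1.11, 16.4 and 1.83 CPM in transferred hearts, where 3 counts correspond to 0.115 to 0.189 CPM. As for S100a8, transferred heart 2 was highest and heart 3 next, which follows from choosing genes by their likeness over these same hearts.

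**Figure D3:**
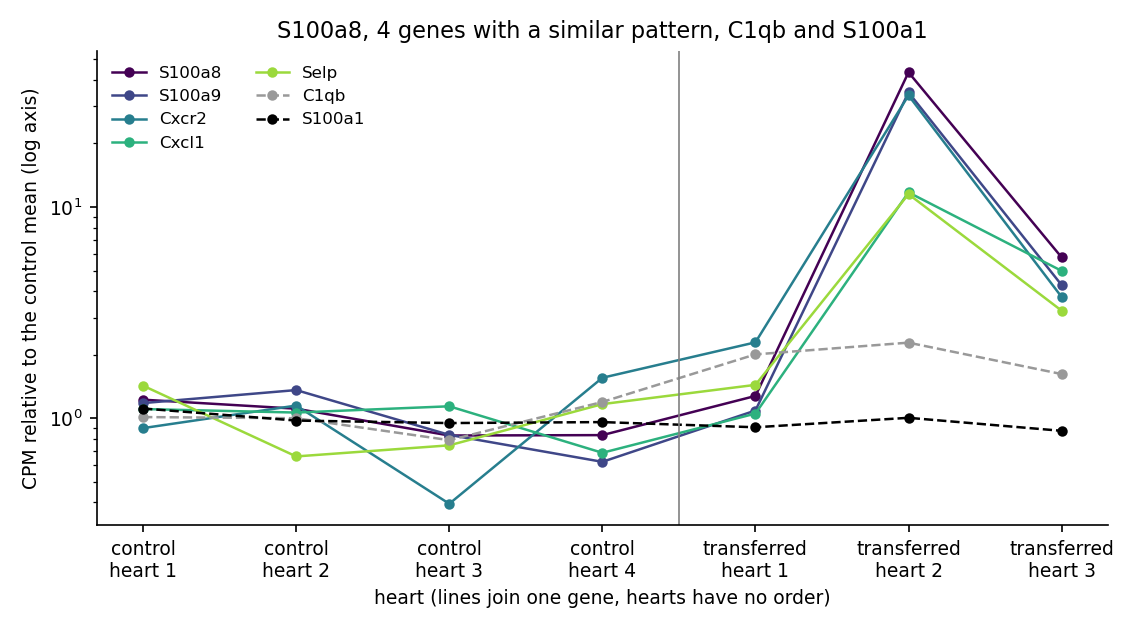
The vertical log axis gives CPM of each gene divided by its mean over the control hearts, for the 7 hearts along the horizontal axis, and lines join the values of 1 gene. S100a8 and the 4 plotted genes like it peak in transferred heart 2 (S100a8 at 43.4), while S100a1 stays between 0.873 and 1.11. The 4 genes were chosen for their likeness to S100a8 over these same hearts. C1qb, a macrophage gene, is also raised in transferred heart 1, where S100a8 stands at 1.28.

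Marker lists of other cell types were read beside the calprotectin genes. Of 31 listed neutrophil markers 20 were in the table and 15 were tested. None of the 15 passed the edgeR test, and 11 had an unadjusted p-value under 0.05 with a higher level in transferred hearts, beside 7.17% of all tested genes. Their median log2 fold change was 1.59, against -0.002 over all tested genes. In 12 of the 15, transferred heart 2 was the highest of the 7 hearts, as it was for 17.5% of all tested genes. The summed level of the 20 markers was 143.9 to 171.7 CPM in control hearts and 179.6, 294.5 and 219.3 CPM in transferred hearts 1, 2 and 3. G0s2, the most abundant of them, was at 61.9 to 70.9 CPM in control hearts and at 88.4, 59.5 and 108.4 CPM in transferred hearts. Without it the sum was 80.1 to 100.8 CPM in control hearts and 91.2, 235.1 and 110.9 CPM in transferred hearts 1, 2 and 3, so transferred heart 1 lay inside the control range. Among these markers Csf3r, the receptor for granulocyte colony-stimulating factor, was at 2.73 to 4.23 CPM in control hearts and at 3.60, 22.9 and 6.47 CPM in transferred hearts. Prok2, which was not tested, was at 0 in all 4 control hearts and had 0, 20 and 1 counts in transferred hearts 1, 2 and 3. Padi4, also not tested, went the other way. It had 18, 9, 10 and 8 counts in control hearts and 8, 3 and 3 in transferred hearts. No listed neutrophil marker in the table was at 0 in all 7 hearts. The smallest p-values of this list belonged to Clec4d, Chil3 and Ifitm6, with log2 fold changes of 2.18, 2.45 and 2.18 (edgeR adjusted p = 0.102, 0.167 and 0.17).

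All 18 tested markers of monocytes and macrophages had an unadjusted p-value under 0.05 with a higher level in transferred hearts, beside 7.17% of all tested genes. Of the 18, 3 rose past the adjusted threshold, beside 0.13% of all tested genes, namely C1qb, Coro1a and Mrc1, by 0.98, 1.14 and 0.77 on the log2 scale (edgeR adjusted p = 0.0384 for each). None of the 3 passed with limma-voom, with the identifier form as a covariate, without the hearts with letters, or without any single control heart or transferred heart 2, and C1qb and Mrc1 did not pass without transferred heart 1. In every alternative they were higher in transferred hearts, by 0.69 to 1.27 on the log2 scale. Over the whole list the median log2 fold change was 1.03, against -0.002 over all tested genes. Their summed level was 545.1 to 803.2 CPM in control hearts and 1342, 1458 and 952.7 CPM in transferred hearts 1, 2 and 3. As in the neutrophil list, transferred heart 2 was the highest heart in most markers, 12 of the 18, beside 17.5% of all tested genes. The other 6 were highest in transferred heart 1, beside 16.5% of all tested genes. Transferred heart 1 was high in macrophage markers while its S100a8 and S100a9 stood at 1.28 and 1.09 times the control mean. None of these markers was at 0 in all hearts. The part of neutrophils or macrophages in the S100 values was not tested.

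S100A8/A9 signals through TLR4, and a list of 22 genes of the TLR4 and NF-kB response had 10 tested members. None passed the edgeR test, and 7 had an unadjusted p-value under 0.05 with a higher level in transferred hearts, beside 7.17% of all tested genes. The median log2 fold change was 1.84, against -0.002 over all tested genes. Lcn2 is on this list and on that of neutrophil markers. Transferred heart 2 was highest in 8 of the 10, beside 17.5% of all tested genes. Sele, the endothelial E-selectin, was at 1.02, 2.195, 1.497 and 2.02 CPM in control hearts and at 2.69, 18.2 and 5.83 CPM in transferred hearts. Vcam1, an adhesion molecule for leukocytes, differed by 1.02 on the log2 scale (edgeR adjusted p = 0.0764) and Cxcl1 by 2.55 (edgeR adjusted p = 0.165).

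No S100 receptor or binding partner passed the edgeR test. Of 32 listed genes 15 were in the table and 14 were tested, and 3 of these had an unadjusted p-value under 0.05, beside 12.4% of all tested genes, all 3 with a higher level in transferred hearts. The median log2 fold change was 0.07, also against -0.002. Tlr4 was at 70.1, 64.6, 87.6 and 74.3 CPM in control hearts and at 96.0, 95.8 and 98.8 CPM in transferred hearts. These groups did not overlap, and its log2 fold change was 0.39 (edgeR adjusted p = 0.16). Unlike S100a8, Tlr4 stood at nearly one level in all 3 transferred hearts. Anxa4, an annexin, differed by 0.39 on the log2 scale as well (edgeR adjusted p = 0.127). The calcium pump gene Atp2a2 and the titin gene Ttn, partners of S100A1, had log2 fold changes of -0.08 and -0.02, with edgeR adjusted p-values of 0.822 and 0.973. Cacybp, the S100A6 partner, had a log2 fold change of 0.03, and Kcnk3, a potassium channel that S100A10 helps to traffic, one of -0.09.

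The labelled tissue was checked against its markers, which were summed at 160100 to 187200 CPM in control and 157600 to 191000 CPM in transferred hearts for cardiomyocytes. None of the 18 tested cardiomyocyte markers passed the edgeR test and none had an unadjusted p-value under 0.05, with a median log2 fold change of -0.05 beside the -0.11 of S100a1. Their smallest p-values belonged to Cox6a2, Fabp3 and Tnnt2, with log2 fold changes of 0.15, -0.16 and 0.13. None of the 18 tested fibroblast markers passed, and the median log2 fold change was -0.02 beside the 0.46 of S100a4. Fap, the fibroblast activation protein, had -0.49, Fn1 0.32 and Col5a2 -0.25, with edgeR adjusted p-values of 0.338, 0.453 and 0.552. Of 13 tested endothelial markers 4 had an unadjusted p-value under 0.05, 2 of them higher and 2 lower in transferred hearts, beside 12.4% of all tested genes. Of the 13, 1 passed, beside 0.235% of all tested genes, namely Aplnr, which fell by 0.91 on the log2 scale (edgeR adjusted p = 0.0384), and the median was 0.006. Aplnr did not pass in 8 of 17 alternatives, the ones named for the macrophage genes other than leaving out transferred heart 1. Tie1 and Vwf followed with -0.28 and 1.17 (edgeR adjusted p = 0.185 and 0.2).

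The apex carries an outer epicardial layer, and none of 5 tested epicardial and mesothelial markers passed the test. Their summed level was 15.4 to 47.2 CPM in control hearts and 24.4 to 35.0 CPM in transferred hearts. Wt1, Bnc1 and Upk3b had log2 fold changes of 0.22, -1.06 and -1.09 (edgeR adjusted p = 0.739, 0.746 and 0.809). Human T cells express S100A4, S100A6, S100A10 and S100A11, and human reads that match a mouse gene would be counted on it. The table held 14 T cell markers, of which 5 could be tested and none passed, with Cd247, Cd28 and Cd4 at log2 fold changes of -1.06, -0.13 and 0.35. Summed T cell marker levels overlapped, at 33.8 to 42.4 CPM in control hearts and 31.8 to 39.5 CPM in transferred hearts. The T cell receptor constant genes Trbc1 and Trbc2 were at 0 in all hearts. Cd2, an adhesion molecule of T and natural killer cells, had too few counts to be tested, with 0, 1, 1 and 0 in control hearts and 4, 3 and 5 in transferred hearts, so its counts did not overlap. The share of human reads in the S100 counts was not tested.

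The other S100 genes of the cluster had few or no counts in these hearts. Of 9 listed, 6 were in the table and 1, S100a7a, was tested, with 1 to 22.5 counts per heart and a log2 difference of -0.10 (edgeR adjusted p = 0.977). S100a14 had at most 6 counts in a heart, S100a3 at most 2, and S100a2 and S100a5 at most 0.5. S100a7l2 had 0 counts in every heart. The genes S100b, S100g and S100z are not analysed here.

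The libraries held 16402179 to 25190560 rounded counts over the analysed genes, and 3 counts corresponded to 0.115 to 0.189 CPM, below every value of the 9 members. Such limits cover counting error only.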

How the data were processed

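Polyadenylated RNA from 7 hearts was sequenced. The authors deposited estimated counts per gene, not normalized, and 4.63% of the values had a fractional part. The submitters' processing notes name bcl2fastq 2.20.0.422, cutadapt 2.5, STAR 2.7.2b, featureCounts 1.6.4, DESeq2 1.22.2 and the build GRCm38.p6. Counting settings are not given in the sources used here. The analysed genes lie on chromosomes 1 to 7 and at the beginning of 8, and 1 unfinished row was left out, so column totals are not library depths.

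Counts were rounded, filtered with filterByExpr, scaled with TMM and tested with the edgeR 4.0.16 quasi-likelihood test (robust, R 4.3.3) on all 7 hearts. P-values were adjusted by Benjamini-Hochberg over 7667 genes, with a threshold of 0.05. Standard errors came from the F statistic. Log2 CPM used a prior count of 2. The 9 members and the gene lists were chosen with earlier results of these data known, so no list is independent support. Named genes were the members, the other S100 genes, in each list those past the threshold and otherwise the 3 with the smallest p-values, and the 5 genes most like S100a8. Of these, 2 genes are not reported here. Csf3r, Prok2, Padi4, G0s2, Atp2a2, Ttn, Cacybp, Kcnk3, Lcn2, Nfkb1, Ptgs2, Trbc1, Trbc2 and Cd2 were named after their values were seen. Alternatives were other scalings, filters and tests (DESeq2 1.42.0, limma 3.58.1 voom), the identifier form, and leaving out hearts. Sums of markers without the most abundant gene were added after seeing the data. On simulated counts for this comparison (7588 genes), 79.4% of 2-fold and 99.0% of 4-fold changes were recovered. Each simulated gene had the spread usual for its level. The recovery therefore does not cover genes with a wider spread between hearts. S100a8 and S100a9 are such genes, with coefficients of variation of 137.5% and 139.1% in transferred hearts.

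Replicate numbers follow accession order and only name hearts. Each heart has its own animal identifier. To look for repeated deposits of 1 library, same-group pairs were compared, and their chi-square per degree of freedom was 18.8 to 84.2, so no pair was merged.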

Additional observations from a re-analysis of the deposited data

How the results depend on the processing

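No member passed the threshold in 16 of 17 alternatives, and DESeq2 called 2 (S100a8 and S100a9). Directions were kept in 151 of 153 member values. The exceptions were S100a10 and S100a11 without transferred heart 2, at -0.0224 and -0.0222 (highest leave-one-out values 0.203 and 0.276). Leave-one-heart-out fits gave 0 members called throughout, and log2 fold changes from 1.82 to 4.62 for S100a8, from 1.42 to 4.28 for S100a9, from 0.27 to 0.60 for S100a4, from 0.08 to 0.27 for S100a6, from -0.17 to -0.05 for S100a1 and from -0.20 to -0.08 for S100a16. Adjusted p-values over all alternatives were 0.00857 to 0.528 for S100a8 and 0.022 to 0.549 for S100a9. With limma-voom their log2 fold changes were 2.83 and 2.52. Over all genes the count of 18 became 35 with column totals, 81 with all genes of at least 1 count, 252 with DESeq2, and 0 with limma-voom (907 at an unadjusted p-value under 0.05), the identifier covariate (973) or without the hearts with letters (1054). Leaving out 1 heart gave 0 to 140. The count was 0 without control heart 1, 2 or 4 or transferred heart 2, 1 without control heart 3 and 140 without transferred heart 3. The cause was not tested. Scaling moved the median log2 fold change by at most 0.02. The control level of S100a8 rests on 22 to 43 counts per heart, and depth was not varied. No paired analysis was possible because the labels give the groups fewer than 2 shared replicate numbers.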
